A study of Homo sapiens with 9 samples.

Results

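The genes described here are 10 that methylate DNA or keep transposons silent, namely *DNMT1*, *UHRF1*, *DNMT3A*, *DNMT3B*, *TRIM28*, *SETDB1*, *TASOR*, *MPHOSPH8*, *PPHLN1* and *MORC2*. They were chosen by name, with earlier results of these data known, and make up 10 of the 18132 genes that the array measured by a probe set of their own. The annotation of the array assigns 41 of its 49293 tested probe sets to exactly 1 of these genes, and all 41 are accounted for below. The signals came from NCI-H1993, a human lung adenocarcinoma line that expresses *TDRD9*, in 9 cultures labelled as biological replicates. In each group of 3 cultures the cells had received a control siRNA (siControl), siTDRD9-1 or siTDRD9-2, and the latter are different siRNAs to the *TDRD9* transcript. RNA was taken 72 h later and hybridized to 1 Affymetrix PrimeView array per culture. All values are from 1 cell line, and the control siRNA is the single baseline for both knockdowns.

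DNA methylation in mammals is laid down and copied by different enzymes. *DNMT3A* and *DNMT3B* encode the de novo methyltransferases, which methylate sites that carried no mark, and *DNMT1* encodes the maintenance methyltransferase, which UHRF1 guides to hemimethylated sites behind the replication fork. Transposons are also silenced through histones: KRAB zinc finger proteins bind them and bring in TRIM28, which recruits the histone H3 methyltransferase SETDB1. The HUSH complex, built from TASOR, MPHOSPH8 and periphilin (*PPHLN1*), works with SETDB1 and the ATPase MORC2 on LINE-1 and other long inserted sequences. TDRD9 is a Tudor-domain helicase of the germ line, where in mice it takes part in the piRNA pathway that directs methylation to transposons. The arrays compare the transcript levels of the somatic silencing machinery with and without depletion of *TDRD9* in lung cancer cells.

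*TDRD9* itself had log2 signals of 6.65, 6.80 and 6.93 for siControl, 4.94, 4.64 and 4.28 for siTDRD9-1, and 6.12, 6.12 and 6.06 for siTDRD9-2. Every knockdown culture lay below every siControl culture, and 22.1% and 61.7% of the control signal remained. The log2 differences were -2.18 (SE 0.144, adjusted p = 2.22e-05, limma) and -0.70 (SE 0.144, adjusted p = 0.00931). The second did not pass 0.01 when any siControl array, any siTDRD9-2 array or siTDRD9-1 replicate 2 was left out (adjusted p up to 0.0469). The 5 epithelial markers examined (*EPCAM*, *KRT8*, *KRT18*, *KRT19*, *CDH1*) had mean log2 signals from 11.5 to 13.3, and the 3 lung lineage markers (*NKX2-1*, *NAPSA*, *SFTPB*) from 5.20 to 6.54. The 3 colorectal markers (*CDX1*, *CDX2*, *VIL1*), examined because the RNA isolation field names HCT-shSLBP cells, ran from 3.14 to 6.49, and levels of different probe sets cannot be set against each other. Of 5 markers of cells that the culture should lack, *PTPRC* and *ALB* lay among the dimmest 25% of all probe sets, while *CD3E* (4.80), *PECAM1* (4.67) and *COL1A1* (5.74) did not. *COL1A1* stood 0.48 above siControl with siTDRD9-1 (adjusted p = 0.0121) and 0.00 with siTDRD9-2 (adjusted p = 0.989). The 6 siTDRD9 arrays differed from the siControl arrays in bacterial spike-in transcripts with poly-A tails, which serve to follow the labelling. Over 12 probe sets, their mean log2 signal lay at 8.34 to 8.60 on the siControl arrays and at 7.44 to 7.87 on the others. The difference between the 3′ and 5′ probe sets of these spike-ins was 1.14 to 1.47 and 0.77 to 1.05, and the 3′ probe set of 18S ribosomal RNA was 1.48 and 1.49 log2 units above siControl with siTDRD9-1 and siTDRD9-2. For each of these 3 measures the 6 arrays did not overlap the 3 (two-sided exact permutation p = 0.0119, the lowest that this design allows). The part of these array differences in the results below was not tested.

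At the probe set with the highest mean signal, none of the 10 silencing genes passed an adjusted p of 0.01 with either siRNA. Over all genes measured this way, 1.25% were higher and 2.8% lower with siTDRD9-1, and 1.32% were higher and 3.03% lower with siTDRD9-2. The log2 differences of the 10 genes ran from -0.29 to 0.21 with siTDRD9-1 and from -0.37 to 0.39 with siTDRD9-2, and no 95% interval reached beyond 0.64 in size. Of all 41 probe sets, 2 passed with siTDRD9-1 and 1 with siTDRD9-2, beside 4.54% and 5.19% of all probe sets on the array, which does not set the 10 genes apart. Both siTDRD9-1 probe sets and the siTDRD9-2 probe set rose, where 2.41% and 2.95% of all probe sets rose. They belonged to *DNMT1* and *DNMT3A* and were in neither case the gene's strongest probe set. At an adjusted p under 0.05, 2 and 4 of the 41 passed, beside 10.7% and 12.5% of all.

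None of the 41 probe sets was called with both siRNAs at an adjusted p under 0.01 and 2-fold, a call that 0.361% of all probe sets met. At an unadjusted p under 0.05 there were 8 with siTDRD9-1 and 14 with siTDRD9-2, beside 23.4% and 25.4% of all probe sets. The median log2 difference over the 41 was 0.05 with siTDRD9-1 and 0.06 with siTDRD9-2, beside 0.00 and -0.02 over all probe sets. The groups did not overlap for 12 of the 41 probe sets with siTDRD9-1 and for 16 with siTDRD9-2, and for 27.1% and 29.6% of all probe sets. Because the samples are bulk RNA, fewer cells with a transcript and less of it per cell cannot be told apart. The median 95% half-width of a difference was 0.23 log2 units, or 1.18-fold, with 3 arrays a group.

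**Figure D1:**
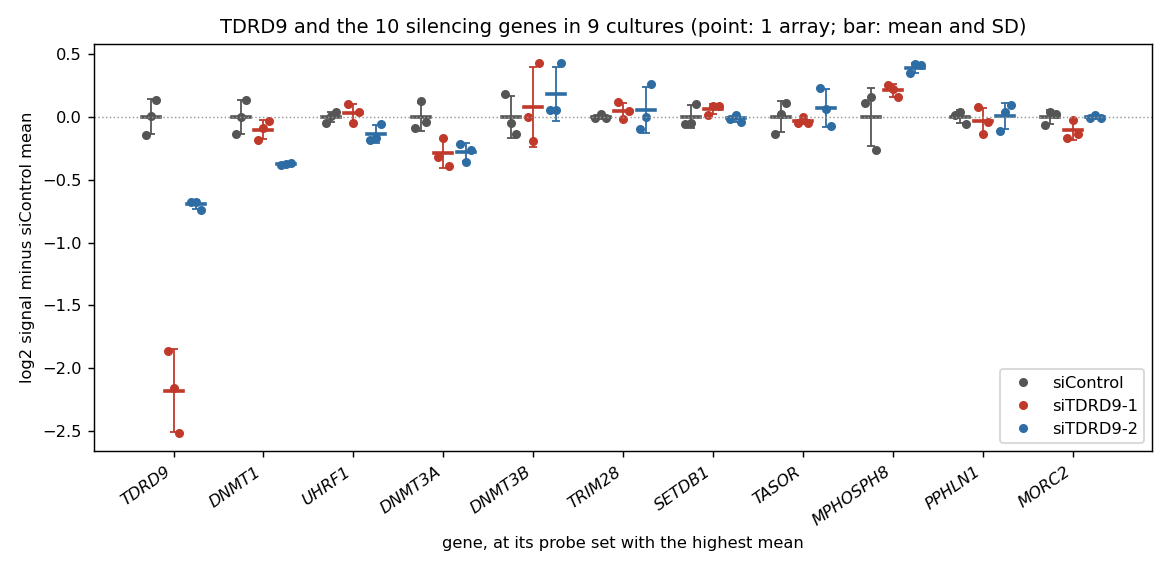
Log2 signal of *TDRD9* and of the 10 silencing genes on each of 9 arrays, as the difference from the siControl mean of the same probe set (vertical axis, log2 units); points are arrays, short bars the mean and whiskers the SD of 3 cultures. *TDRD9* stands apart at -2.18 and -0.70, while the silencing genes lie between -0.37 and 0.39 on average.

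The maintenance genes showed no common direction. *DNMT1* was read by a pair of probe sets whose differences had opposite signs. At the stronger one the log2 signals were 10.37, 10.51 and 10.64 for siControl, 10.32, 10.42 and 10.47 for siTDRD9-1, and 10.13, 10.13 and 10.14 for siTDRD9-2. The siTDRD9-1 cultures overlapped the controls, and the siTDRD9-2 cultures lay below all of them. The log2 differences were -0.10 (SE 0.093, adjusted p = 0.587) and -0.37 (SE 0.093, adjusted p = 0.0233). At the other *DNMT1* probe set the signals were 9.20, 9.40 and 9.15 for siControl, 9.82, 9.71 and 9.76 for siTDRD9-1, and 9.51, 9.65 and 9.68 for siTDRD9-2. All 6 siTDRD9 cultures lay above all siControl cultures. The signal rose by 0.52 with siTDRD9-1 (1.43-fold, SE 0.096, adjusted p = 0.00556) and stood 0.37 higher with siTDRD9-2 (SE 0.096, adjusted p = 0.0275). The rise did not pass 0.01 without siControl replicate 1 or 3, any siTDRD9-1 replicate or siTDRD9-2 replicate 2, with an adjusted p of up to 0.0318 and a log2 difference of 0.47 to 0.55 in those fits.

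*UHRF1*, whose product brings DNMT1 to newly copied DNA, was read by 3 probe sets. At its strongest the signals were 9.42, 9.48 and 9.51 for siControl, 9.57, 9.42 and 9.51 for siTDRD9-1, and 9.29, 9.30 and 9.42 for siTDRD9-2. The siTDRD9-2 cultures were the lowest of the 9, by a small margin. The log2 differences were 0.03 (SE 0.085, adjusted p = 0.892) and -0.14 (SE 0.085, adjusted p = 0.364). Its other probe sets stood at 0.15 and 0.25 under siTDRD9-1 and at 0.16 and -0.02 under siTDRD9-2, none of which passed (adjusted p of at least 0.263).

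Of the de novo enzymes, *DNMT3A* had the largest rise among the 41 probe sets, at the second strongest of its 4 probe sets. Its log2 signals there were 6.77, 6.81 and 6.47 for siControl, 7.51, 7.42 and 7.67 for siTDRD9-1, and 7.50, 7.42 and 7.29 for siTDRD9-2. Both knockdown groups lay above all siControl cultures and overlapped each other. The signal rose by 0.85 with siTDRD9-1 (1.80-fold, SE 0.115, adjusted p = 0.000948) and by 0.72 with siTDRD9-2 (1.65-fold, SE 0.115, adjusted p = 0.00215). The 6 arrays that carry this rise are those with less spike-in signal, which holds for any rise or fall seen with both siRNAs. Without siTDRD9-2 replicate 2 the second value was 0.72 with an adjusted p of 0.0114. The strongest *DNMT3A* probe set went the other way, with 7.42, 7.64 and 7.47 for siControl, 7.19, 7.34 and 7.12 for siTDRD9-1, and 7.30, 7.15 and 7.24 for siTDRD9-2. Here too all siTDRD9 cultures stood on 1 side of the controls, but below them. The log2 differences were -0.29 (SE 0.097, adjusted p = 0.0825) and -0.28 (SE 0.097, adjusted p = 0.0879), which did not pass. Its 2 dimmest probe sets stood at 0.10 and 0.01 under siTDRD9-1 and at -0.12 and -0.06 under siTDRD9-2. The mean over the 4 probe sets differed by 0.17 (adjusted p = 0.239) and 0.07 (adjusted p = 0.672). Which transcript of the gene each probe set reads was not analysed here.

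**Figure D2:**
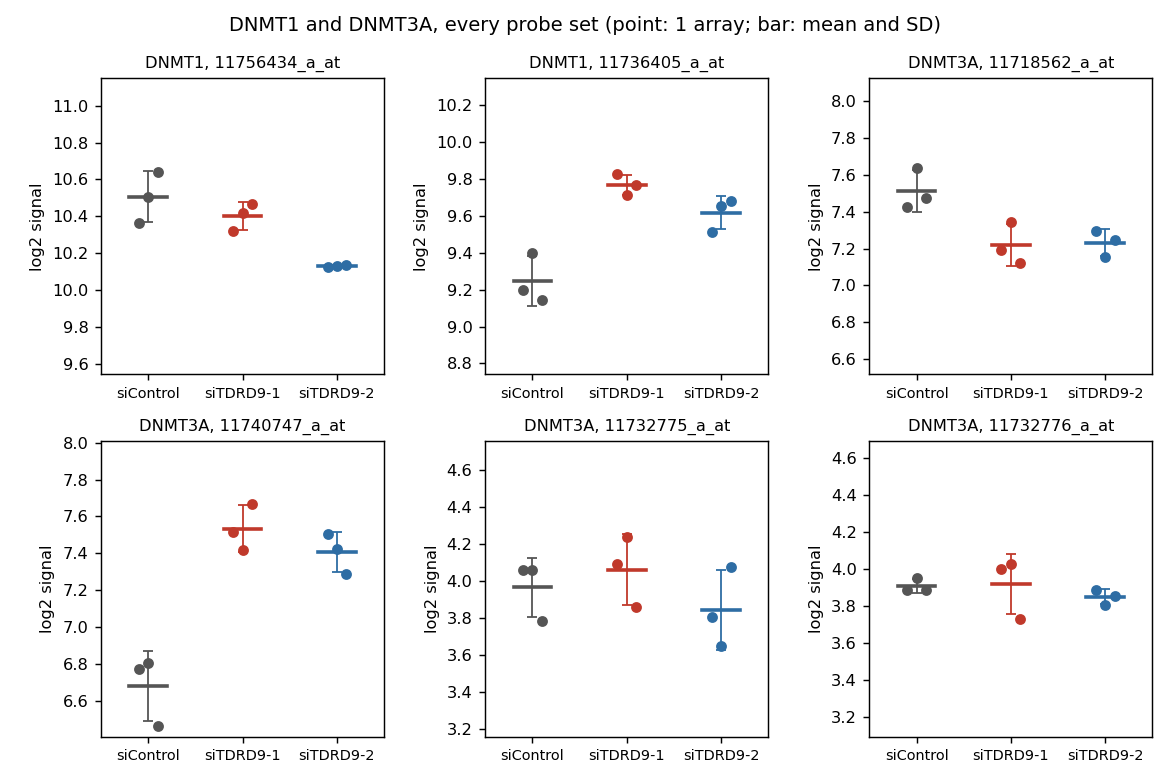
Log2 signal (vertical axes, each spanning the same number of log2 units) of every probe set of *DNMT1* and *DNMT3A* by siRNA group (horizontal axes); points are arrays, long bars the mean and whiskers the SD of 3 cultures. Panels run from the highest mean to the lowest within a gene. The second *DNMT3A* panel was higher in all 6 siTDRD9 cultures and the first lower in all 6.

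The sequence before the start sites is printed for *DNMT3A* and *DNMT1* because the probe sets of each disagreed. RefSeq (GRCh38.p14) gives 6 start sites of *DNMT3A* on the minus strand of chromosome 2, of which 3 lie upstream and 3 downstream of a gap of 89610 bases. The windows below hold the 250 bases before the outermost start on each side, at chr2:25342591-25342840 and chr2:25252132-25252381, and those before the start of *DNMT1*, at chr19:10194954-10195203 on the minus strand. All lie outside the transcript that begins at the start in question. The capitals mark CG, the dinucleotide that the 3 DNA methyltransferases modify, which reads the same on both strands.
DNMT3A, upstream start: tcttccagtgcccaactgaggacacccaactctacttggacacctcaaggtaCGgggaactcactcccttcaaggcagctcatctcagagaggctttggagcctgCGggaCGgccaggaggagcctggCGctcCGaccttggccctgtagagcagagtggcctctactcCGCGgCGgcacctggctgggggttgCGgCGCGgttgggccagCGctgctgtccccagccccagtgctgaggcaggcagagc
DNMT3A, downstream start: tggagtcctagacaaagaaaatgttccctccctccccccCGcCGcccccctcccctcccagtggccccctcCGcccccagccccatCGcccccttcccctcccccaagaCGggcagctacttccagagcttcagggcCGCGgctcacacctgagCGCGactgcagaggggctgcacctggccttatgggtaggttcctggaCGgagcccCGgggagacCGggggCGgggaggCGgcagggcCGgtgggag
DNMT1: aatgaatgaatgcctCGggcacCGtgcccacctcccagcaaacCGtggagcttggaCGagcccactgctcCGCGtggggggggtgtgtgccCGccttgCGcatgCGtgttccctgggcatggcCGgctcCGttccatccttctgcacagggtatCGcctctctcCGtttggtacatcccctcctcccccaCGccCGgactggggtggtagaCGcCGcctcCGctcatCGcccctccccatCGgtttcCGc
There are 12 CG in the upstream and 15 in the downstream window of *DNMT3A*, and 21 in that of *DNMT1*. Of all 35116 windows of this length in the table, 93.9% hold a CG, and 48.5%, 42.9% and 30.2% hold at least as many as these windows. The median window holds 11. The printed *DNMT3A* windows hold the fewest CG on their sides, and the others hold 21 and 33 upstream and 22 and 25 downstream. Among the 20 windows of the 9 silencing genes in the table, the number ran from 1 at a *TASOR* start to 41 at a *UHRF1* start, and *DNMT3B* had 3. *TRIM28* had no window. Whether any of these sites was methylated in the cells was not measured.

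*DNMT3B* was read by 11 probe sets, more than any other of the 10 genes. At the strongest the log2 signals were 6.36, 6.13 and 6.03 for siControl, 6.17, 5.98 and 6.60 for siTDRD9-1, and 6.23, 6.23 and 6.60 for siTDRD9-2. The 3 groups overlapped, and the differences were 0.08 (SE 0.161, adjusted p = 0.843) and 0.18 (SE 0.161, adjusted p = 0.543). Over its 11 probe sets the differences ran from -0.01 to 0.21 with siTDRD9-1 and from -0.02 to 0.30 with siTDRD9-2. With each siRNA 10 of the 11 were above 0, and none passed (adjusted p of at least 0.269 and 0.121). These probe sets share transcripts and are not replicates of each other.

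No probe set of *TRIM28* or *SETDB1* passed. *TRIM28*, the corepressor that KRAB zinc finger proteins recruit, had 1 probe set with signals of 10.47, 10.50 and 10.46 for siControl, 10.59, 10.46 and 10.52 for siTDRD9-1, and 10.38, 10.48 and 10.74 for siTDRD9-2. The groups overlapped, with differences of 0.05 (95% interval -0.17 to 0.27, adjusted p = 0.843) and 0.06 (95% interval -0.17 to 0.28, adjusted p = 0.796). *SETDB1*, the histone methyltransferase, gave 7.44, 7.44 and 7.60 for siControl, 7.51, 7.58 and 7.58 for siTDRD9-1, and 7.48, 7.51 and 7.45 for siTDRD9-2 at its stronger probe set. Here too the groups overlapped, with differences of 0.06 (95% interval -0.12 to 0.25, adjusted p = 0.741) and -0.01 (95% interval -0.20 to 0.17, adjusted p = 0.95). Its weaker probe set gave -0.25 (adjusted p = 0.281) and -0.03 (adjusted p = 0.933).

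Within the HUSH complex, *MPHOSPH8*, which encodes the chromodomain reader of the complex, had differences above 0 at most of its probe sets. At its strongest probe set the signals were 8.62, 8.67 and 8.25 for siControl, 8.77, 8.74 and 8.67 for siTDRD9-1, and 8.86, 8.93 and 8.93 for siTDRD9-2. All siTDRD9 cultures were above the controls, siTDRD9-1 only just. The differences were 0.21 (SE 0.111, adjusted p = 0.291) and 0.39 (SE 0.111, adjusted p = 0.0403), short of 0.01. Of its 5 probe sets 4 were above 0 with both siRNAs, at 0.21 to 0.36 with siTDRD9-1 and 0.28 to 0.39 with siTDRD9-2. The exception gave -0.14 and -0.07. The mean over the 5 probe sets differed by 0.20 (adjusted p = 0.149) and 0.25 (adjusted p = 0.0595).

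*TASOR*, the scaffold of HUSH, showed signals of 9.17, 9.33 and 9.42 for siControl, 9.26, 9.31 and 9.26 for siTDRD9-1, and 9.54, 9.37 and 9.23 for siTDRD9-2 at its strongest probe set. These overlapped, and the differences were -0.03 (SE 0.102, adjusted p = 0.907) and 0.07 (SE 0.102, adjusted p = 0.731). Its other 2 probe sets lay at -0.25 and -0.06 with siTDRD9-1 and at -0.26 and -0.22 with siTDRD9-2, with adjusted p of at least 0.163. *PPHLN1*, which encodes the RNA-binding subunit periphilin, gave 8.59, 8.61 and 8.51 for siControl, 8.65, 8.44 and 8.53 for siTDRD9-1, and 8.46, 8.61 and 8.66 for siTDRD9-2 at its strongest probe set. These groups overlapped as well. The differences were -0.03 (SE 0.093, adjusted p = 0.89) and 0.01 (SE 0.093, adjusted p = 0.974). Its 9 probe sets spread more than those of any other of the 10 genes on the negative side, from -0.53 to 0.26 with siTDRD9-1 and from -0.42 to 0.14 with siTDRD9-2. At the lowest of them the signals were 5.52, 5.68 and 5.86 for siControl, 5.18, 5.42 and 4.88 for siTDRD9-1, and 5.42, 5.42 and 4.95 for siTDRD9-2. The siTDRD9 cultures lay below the controls there, but the values did not pass (adjusted p = 0.0631 and 0.121). *MORC2*, the ATPase that compacts chromatin with HUSH, gave 8.59, 8.70 and 8.68 for siControl, 8.49, 8.63 and 8.52 for siTDRD9-1, and 8.65, 8.67 and 8.65 for siTDRD9-2. Both knockdown groups overlapped the controls, and siTDRD9-2 lay just above siTDRD9-1. The differences of *MORC2* were -0.11 (SE 0.083, adjusted p = 0.499) and -0.0005 (SE 0.083, adjusted p = 0.998).

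**Figure D3:**
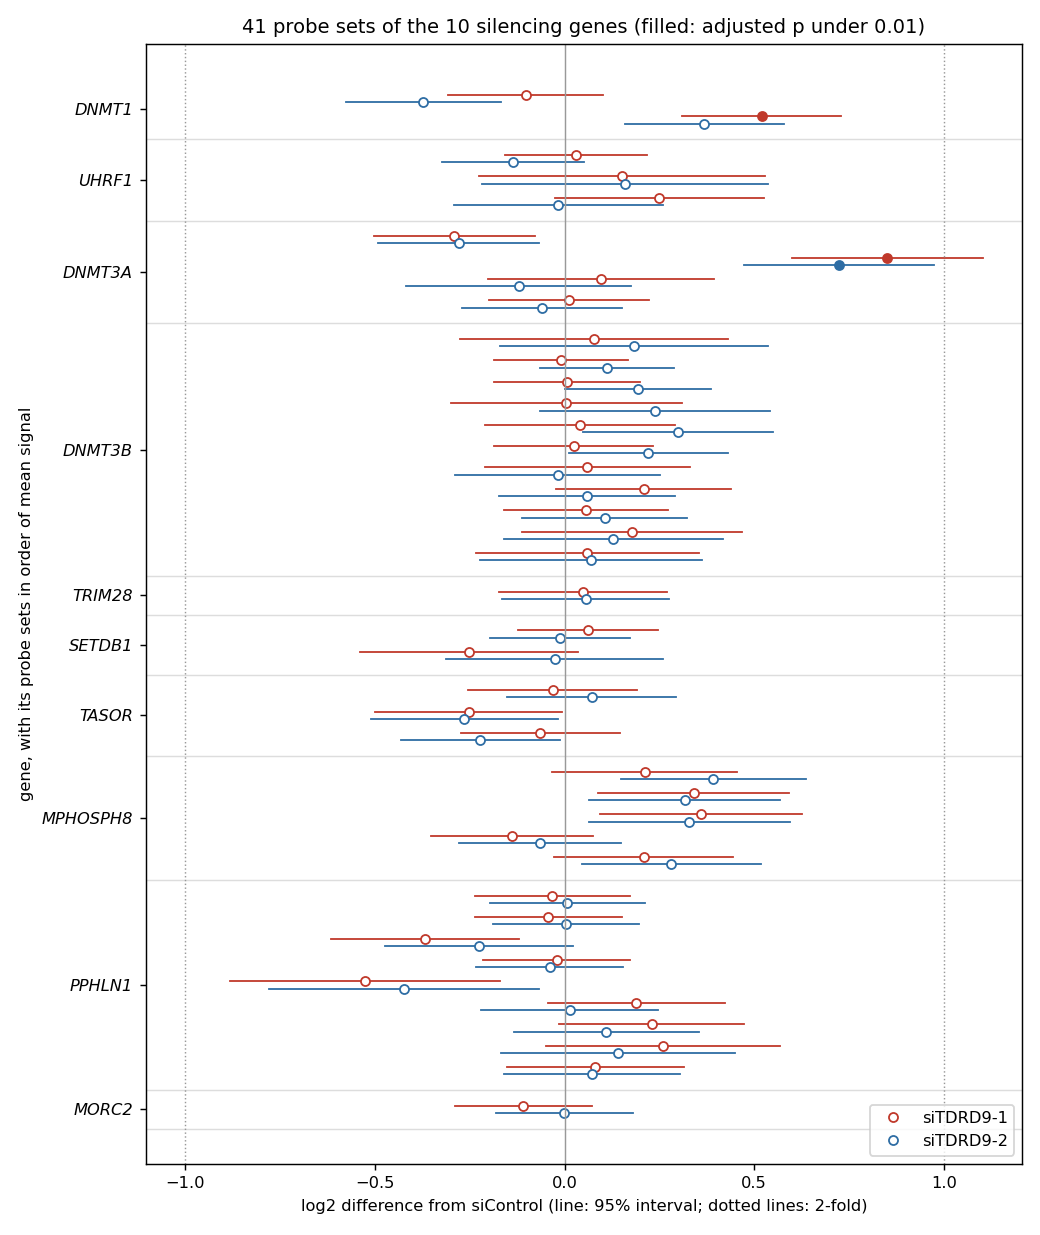
Log2 difference from siControl (horizontal axis) of each of the 41 probe sets, grouped by gene and ordered by mean signal within a gene; lines are 95% intervals, filled points passed an adjusted p of 0.01, and dotted lines mark 2-fold. The filled points are at 0.52 for *DNMT1* with siTDRD9-1 and at 0.85 and 0.72 for *DNMT3A*.

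Between the siRNAs, 0 of the 41 probe sets differed at an adjusted p under 0.01 in limma, beside 1.95% of all probe sets, and 2 had an unadjusted p under 0.05, beside 20.5% of all. The smallest adjusted p was 0.123, for the stronger *DNMT1* probe set, and the differences between siTDRD9-2 and siTDRD9-1 ran from -0.27 to 0.26. *TDRD9* itself differed between the siRNAs by 1.48 (adjusted p = 0.000426). Over the 41 probe sets 31 had the same sign with both siRNAs, which share their 3 siControl arrays.

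Genes that work with these 10 were examined as lists. In the list of HUSH and SETDB1 partners all 21 genes were measured. At the strongest probe set none rose and 1 fell with each siRNA. This was *SUV39H2*, a histone H3 methyltransferase of heterochromatin, with signals of 9.06, 9.28 and 9.25 for siControl, 8.77, 8.76 and 8.69 for siTDRD9-1, and 8.66, 8.77 and 8.66 for siTDRD9-2. The siTDRD9 cultures lay below all controls, and the signal fell by 0.46 (SE 0.090, adjusted p = 0.00804) and 0.50 (SE 0.090, adjusted p = 0.00445). Its other probe set went the opposite way, with 0.46 (adjusted p = 0.0149) and 0.33 (adjusted p = 0.0537). With siTDRD9-1 the fall did not pass without siControl replicate 2 or 3, any siTDRD9-1 replicate or siTDRD9-2 replicate 1 or 2 (adjusted p up to 0.0444). With siTDRD9-2 it did not pass without siControl replicate 2 or 3 or any siTDRD9-2 replicate (adjusted p up to 0.028). The list had a median log2 difference of -0.06 with siTDRD9-1 and -0.03 with siTDRD9-2, beside -0.03 and -0.06 over all genes.

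In 3 of these partner genes a weaker probe set was called with both siRNAs, which 125 of the 18132 genes met at some probe set. *ATRX*, a remodeller that places histone variant H3.3 at silent repeats, had 3 such probe sets among 8. At the strongest of them the signals were 7.11, 7.14 and 6.89 for siControl, 8.44, 8.32 and 8.32 for siTDRD9-1, and 8.54, 8.45 and 8.42 for siTDRD9-2. All 6 siTDRD9 cultures lay above the controls, the siRNAs overlapped each other, and the signal rose by 1.31 (SE 0.095, adjusted p = 4.2e-05) and 1.42 (SE 0.095, adjusted p = 2.4e-05). The other 5 *ATRX* probe sets did not pass and lay between -0.30 and 0.33 with the siRNAs, the gene's strongest at 0.19 (adjusted p = 0.348) and 0.33 (adjusted p = 0.0712). *ATF7IP* encodes the partner that stabilizes SETDB1. It rose by 1.09 and 1.43 at 1 probe set (adjusted p = 0.00436 and 0.000799) and by 1.39 and 1.83 at another (adjusted p = 0.00107 and 0.000186). Its strongest probe set stood at 0.08 (adjusted p = 0.749) and 0.25 (adjusted p = 0.161). The rise of 1.09 did not pass without siControl replicate 2 or 3 or siTDRD9-1 replicate 1 or 3, with values of 0.87 to 1.09. *EHMT1*, another histone H3 methyltransferase, rose by 1.02 and 1.13 at 1 of 3 probe sets (adjusted p = 0.000285 and 0.000136), and its strongest gave -0.08 and 0.01. As with *DNMT1* and *DNMT3A*, the rises of these genes were seen at probe sets other than the strongest. These 3 partner genes were named for a call at any of their probe sets. Over the whole array 1.25% and 1.32% of genes rose at their strongest probe set, beside 2.41% and 2.95% of all probe sets. Fewer rises at the strongest probe sets are thus not particular to these genes. The rises lay on the 6 siTDRD9 arrays, which had less spike-in signal, as do all rises and falls with both siRNAs. Picked after their values were seen, weaker probe sets of *CBX5* and *ZNF638* passed with siTDRD9-1 only. *CBX5* rose by 0.68 and 0.57 (adjusted p = 0.00243 and 0.00151) and *ZNF638* by 0.96 (adjusted p = 0.00742). With siTDRD9-2 the adjusted p was at least 0.0175, and the alternatives below did not cover these probe sets. The strongest probe sets stood at 0.27 and -0.03 for *CBX5* and at 0.09 and -0.08 for *ZNF638* with siTDRD9-1 and siTDRD9-2, and did not pass. Another *ZNF638* probe set, brighter than the one that rose, went the opposite way, at -0.45 and -0.44 (adjusted p = 0.0212 and 0.0227).

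**Figure D4:**
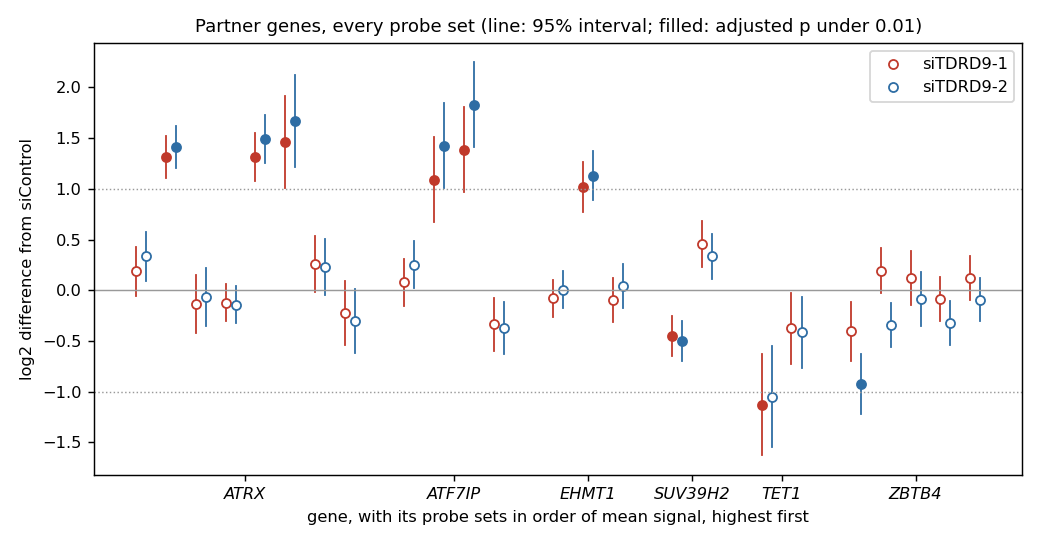
Log2 difference from siControl (vertical axis) of every probe set of 6 partner genes, ordered within each gene from the highest mean signal to the lowest; lines are 95% intervals, filled points passed an adjusted p of 0.01, and dotted lines mark 2-fold. Filled points of *ATRX*, *ATF7IP* and *EHMT1* lie between 1.02 and 1.83, while the first probe set of each lies between -0.08 and 0.33.

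Of 21 partners, readers and erasers of DNA methylation, 20 were analysed here. At the strongest probe set none rose, and 1 fell with each siRNA. The one that fell with siTDRD9-1 was *TET1*, which oxidizes methylated cytosine, and the one with siTDRD9-2 was *ZBTB4*, a zinc finger protein that binds methylated DNA; both are named after their values were seen. The *TET1* signals were 6.05, 6.37 and 6.27 for siControl, 5.18, 5.52 and 4.60 for siTDRD9-1, and 5.50, 5.29 and 4.74 for siTDRD9-2. All siTDRD9 cultures were lower. The signal fell by 1.13 with siTDRD9-1 (SE 0.228, adjusted p = 0.00906) and the difference with siTDRD9-2 was -1.05 (SE 0.228, adjusted p = 0.0118). The fall did not pass without any one siControl replicate, siTDRD9-1 replicate 1 or 3, or siTDRD9-2 replicate 2 (adjusted p up to 0.0452). The other *TET1* probe set stood at -0.38 and -0.42 with siTDRD9-1 and siTDRD9-2 (adjusted p = 0.178 and 0.12). *ZBTB4* fell by 0.93 with siTDRD9-2 (SE 0.133, adjusted p = 0.00122), against -0.41 with siTDRD9-1 (adjusted p = 0.0778). The weaker *ZBTB4* probe sets did not pass, at -0.09 to 0.19 with siTDRD9-1 and -0.34 to -0.09 with siTDRD9-2. The list's median differences at the strongest probe sets were -0.16 and -0.09. At weaker probe sets *MBD4*, a DNA glycosylase that binds methylated sites, rose by 0.50 with siTDRD9-1 (adjusted p = 0.00735), with 0.46 for siTDRD9-2 (adjusted p = 0.0112), and *TRDMT1* fell with both siRNAs; these too are named after their values were seen. The *MBD4* rise did not pass without any one siControl replicate, siTDRD9-1 replicate 1 or 2, or siTDRD9-2 replicate 1 or 2 (adjusted p up to 0.0404). It was seen at 1 of 5 *MBD4* probe sets. The strongest lay a little under siControl, at -0.10 for siTDRD9-1 and -0.08 for siTDRD9-2. The remaining *MBD4* probe sets ran from -0.22 to -0.01 for siTDRD9-1 and from -0.14 to 0.13 for siTDRD9-2. None of these passed.

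At the strongest probe set, no gene of 3 further lists passed in either direction. This held for all 8 germline genes with promoters methylated in somatic cells, at -0.18 to 0.35 with siTDRD9-1 and -0.29 to 0.29 with siTDRD9-2. It held for the 6 measured of 10 retroelement-derived genes, at -0.06 to 0.32 and -0.19 to 0.17, and for 6 zinc finger proteins that recruit TRIM28, at -0.19 to 0.22 and -0.38 to 0.38. These zinc finger proteins take part in silencing, so their own levels do not report on it. All 8 germline genes lay among the dimmest 25% of all probe sets there, with mean log2 signals of 2.35 to 3.77. Of the retroelement-derived genes, *ERVFRD-1*, *ERVW-1* and *L1TD1* were as dim, at 2.76 to 3.48. Small differences at such low signals say little about silencing. At weaker probe sets, named after their values were seen, *PEG10* of the second group rose with both siRNAs, by 0.68 and 0.76 (adjusted p = 0.00434 and 0.00198), and *ZNF91* of the third fell by 0.54 with siTDRD9-1 (adjusted p = 0.00808) and stood at 0.02 with siTDRD9-2 (adjusted p = 0.943). The *PEG10* rise with siTDRD9-1 did not pass without siControl replicate 2 or 3 or any one siTDRD9-1 replicate (adjusted p up to 0.0263), and that with siTDRD9-2 did not pass without siTDRD9-2 replicate 2 (adjusted p = 0.0104). The *ZNF91* fall did not pass without any one siControl or siTDRD9-1 replicate or siTDRD9-2 replicate 2 (adjusted p up to 0.0437). At an unadjusted p under 0.05 in limma there were 2 and 0 germline genes, 1 and 0 retroelement-derived genes, and 0 and 2 zinc finger genes at their strongest probe sets with siTDRD9-1 and siTDRD9-2, beside 23% and 23.5% of all genes. Among 12 replication genes of S phase, at the strongest probe set, 1 rose with siTDRD9-1 and none with siTDRD9-2, beside 1.25% and 1.32% of all genes. It was *MCM6*, a subunit of the replicative helicase named after its values were seen, at 0.49 (adjusted p = 0.00754) and 0.42 (adjusted p = 0.0146), and it passed in 5 of 16 alternative settings. Its other probe sets stood at 0.51 and -0.23 with siTDRD9-1 and at 0.61 and -0.23 with siTDRD9-2, none of which passed. A weaker probe set of *MCM2*, named in the same way, rose by 0.54 with siTDRD9-2 (adjusted p = 0.00245) and stood at 0.25 with siTDRD9-1 (adjusted p = 0.105). The strongest *MCM2* probe set stood at -0.01 and 0.21 with siTDRD9-1 and siTDRD9-2 (adjusted p = 0.973 and 0.127). Among the control probe sets of the array 1 reads Alu repeats, the most numerous human retroelement, and it was examined after the files had been seen. Its log2 signals were 13.91, 13.93 and 13.80 for siControl, 13.94, 13.87 and 14.02 for siTDRD9-1, and 13.94, 13.92 and 13.92 for siTDRD9-2. The groups overlapped, with differences of 0.07 (SE 0.084, adjusted p = 0.723) and 0.04 (SE 0.084, adjusted p = 0.801). This is the brightest end of the array's range, and Alu sequence inside other transcripts is read with it.

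Among the strongest probe sets of the 10 genes, *DNMT1* had the smallest p over the 3 groups (0.00536 by the moderated F test), and the 3 genes whose pattern was most like it were *EFR3B*, *KPNA6* and *NGEF*. Pearson's r over the 9 arrays was 0.99 for *EFR3B*, a scaffold of a membrane lipid kinase, 0.98 for *KPNA6*, a nuclear import receptor, and 0.98 for *NGEF*, a guanine nucleotide exchange factor. These were picked as the highest of 18132 genes, and the arrays share the group differences. Like *DNMT1*, all 3 were lowest with siTDRD9-2, at -0.39, -0.23 and -0.56 from siControl, against -0.12, -0.07 and -0.13 with siTDRD9-1. Of these *NGEF* passed with siTDRD9-2 (adjusted p = 0.00238), though not without siControl replicate 2 or 3 or siTDRD9-2 replicate 2 (adjusted p up to 0.0132).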

How the data were processed

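Total RNA of 9 NCI-H1993 cultures was measured on 9 Affymetrix PrimeView arrays, 3 per group. The authors deposited log2 values made by RMA in Affymetrix Expression Console, a method of background correction, quantile normalization and probe summary that removes differences in total signal between arrays. The labels name limma too, with no versions. The RNA isolation field names HCT-shSLBP cells and the labelling field a different kit type; the sample labels were taken.

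The deposited log2 values were used unchanged in R 4.3.3 with limma 3.58.1. After 102 control probe sets were set aside, 49293 were fitted in 1 model of 3 groups with empirical Bayes moderation, and p-values were adjusted by the Benjamini-Hochberg method over all of them. A probe set passed at an adjusted p under 0.01, and was called with both siRNAs when it also differed by at least 2-fold with each in 1 direction. Genes were assigned from the array's annotation table, and 0 symbols were updated. The fit was tested on simulated data. Spike-in and 18S measures were tested by exact permutation. The number of arrays limits the precision.

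Named were *TDRD9*, all 10 silencing genes at the probe set with the highest mean and at any other that passed, genes of 6 lists called with both siRNAs at any probe set or passing with both at the strongest, and 3 genes most like the gene of the 10 with the smallest p. The 10 genes and the lists were chosen with earlier results of these data known. Alternatives were fits of 2 groups, with a replicate block, with a mean-variance trend or with weighted arrays, centring on the median, cyclic loess, removal of dim probe sets, looser thresholds, 1 averaged value per gene, and omission of each array. Sequences are from RefSeq (GRCh38.p14), which had windows for 9 of the 10 genes.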

Additional observations from a re-analysis of the deposited data

Results flagged for a closer look

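The effect of the siRNAs on *TDRD9* differed between them. Its log2 signal was 1.48 higher with siTDRD9-2 than with siTDRD9-1 (SE 0.144, adjusted p = 0.000426 in limma). None of the 41 probe sets of the 10 silencing genes passed in the same test (2 had an unadjusted p under 0.05, beside 20.5% of all probe sets), and groups of 3 arrays are too small for a test of single outlying arrays.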

How the results depend on the processing

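With siTDRD9-1, 2 of the 41 probe sets passed. The number was 1 in a fit of 2 groups, 1 with the replicate block, 7 with array weights, 0 with the mean of each gene's probe sets, and 1 to 2 with each array left out. With siTDRD9-2, 1 passed. The number was 3 with a variance trend, 2 with array weights, 4 at an adjusted p of 0.05, 0 with the mean of each gene's probe sets, and 0 to 1 with each array left out. Between the siRNAs the number was 0 under all of these. Called with both siRNAs was 1 at 1.5-fold and an adjusted p of 0.05, and 0 otherwise. The cause of these shifts was not tested. For the alternatives other than an adjusted p of 0.05, no share of all probe sets is given beside these counts. Whether the 41 probe sets moved more than the whole array under those alternatives was not tested. Neither the labels nor the methods say whether same-numbered cultures came from 1 experiment. Their deviations from the group means correlated at -0.15 to 0.15, and a culture correlated best with its own number in 5 of 18 checks. With 3 arrays a group these values cannot show whether anything was shared. With the replicate block the adjusted p was 0.0116 for the *DNMT1* rise and 0.0156 for *MCM6* and 0.0143 for *SUV39H2* and 0.0114 for a weaker *TRDMT1* probe set with siTDRD9-1, 0.0153 for *TDRD9* and 0.00502 for *TET1* with siTDRD9-2, each on the other side of 0.01, and it moved no other call of a named probe set. Of 1120 values of named probe sets under alternatives, 1004 kept their side of the threshold, 93 no longer passed, 23 newly passed, none that passed in either setting changed sign, and 35 that passed in neither did. Median centring shifted the median difference of all probe sets by -0.03 and -0.01. The number of arrays and a median half-width of 0.23 log2 units limit what could be seen, and 6 of the 41 probe sets lay among the dimmest 25%.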

Other observations

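Probe sets were also compared within *PEG10* and *TRDMT1*, genes of the lists that were looked at after their values were known. *PEG10*, a gene derived from a retrotransposon, stood at 0.01 and 0.05 log2 units from siControl at its strongest probe set (adjusted p = 0.98 and 0.807) and rose by 0.68 and 0.76 at the next (adjusted p = 0.00434 and 0.00198). Its weakest probe set stood at 0.80 (adjusted p = 0.297) and 1.44 (adjusted p = 0.0488), with an SD of 0.55 to 0.83 within groups. *TRDMT1*, a relative of the DNA methyltransferases that methylates transfer RNA, fell by 0.80 and 0.81 at its second strongest probe set of 7 (adjusted p = 0.000515 and 0.000432), with -0.54 (adjusted p = 0.0448) and -0.41 (adjusted p = 0.109) at the strongest. The next in strength gave -0.52 (adjusted p = 0.0099) and -0.455 (adjusted p = 0.0177), so these probe sets had 1 direction, and the weaker ones did not pass. Neither gene was called at 2-fold.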
